A study of Mus musculus with 3 samples.

Results

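The Sp family comprises 9 related transcription factor genes, Sp1 to Sp9, and the peaks linked to them were examined in a map of Sp9 on the chromatin of the neonatal mouse olfactory bulb. Members were chosen by symbol: every peak whose deposited gene name was Sp1, Sp2, Sp3, Sp4, Sp5, Sp6, Sp7, Sp8 or Sp9 was taken. This gave 14 of the 19979 peaks of the list, linked to 8 of the 9 genes, and Sp7 had no listed peak. Chromatin came from whole olfactory bulbs of CD1 mice aged postnatal day 0 to 2, fixed for 10 min in 1% formaldehyde and sheared to 200 to 1000 bp. There were 2 immunoprecipitation libraries made with a homemade antibody against Sp9 and 1 input library made without antibody. All values below come from 1 list that the authors named as shared peaks, so each peak has 1 score, no error between libraries and no value in the input. The whole bulb holds many cell types, and a low score from few bound cells cannot be told apart from weak binding in many.

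Sp proteins carry 3 zinc fingers of the C2H2 type near the carboxyl end and bind the GC box of promoters and the related GT or CACCC box. Sp1 to Sp4 have glutamine-rich activation regions and most are widely expressed, whereas Sp6 to Sp9 act in restricted tissues. Sp8 and Sp9 are known for their roles in the limb bud and in the interneurons that reach the olfactory bulb. Nothing in the labels says whether the antibody was tested against the other family members.

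Most Sp genes were linked to Sp9 peaks, and 6 of them to peaks in the upper 25% of the list. Of the 9 genes, 8 (88.9%) had at least 1 peak, against 55.4% of the 21900 protein-coding genes of the RefSeq table. A peak in the upper 25%, with a score of at least 353.56, was linked to 6 of the 9 genes (66.7%), against 19.2% of all coding genes. Among genes that had any peak, it was linked to 6 of the 8 Sp genes and 34.6% of coding genes. The same 6 genes were those with a peak at or above the median score of 210.06, which 35.4% of coding genes had. The genes had 1.56 peaks each, against 0.819 per coding gene, and 6 of the 9 had 2 peaks. Of all coding genes, 15.5% had 2 or more. Among genes with any peak, 6 of the 8 Sp genes had 2 peaks, and 27.9% of coding genes had 2 or more. These shares describe 1 list, and no test was made of genes that were chosen with the list known.

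**Figure D1:**
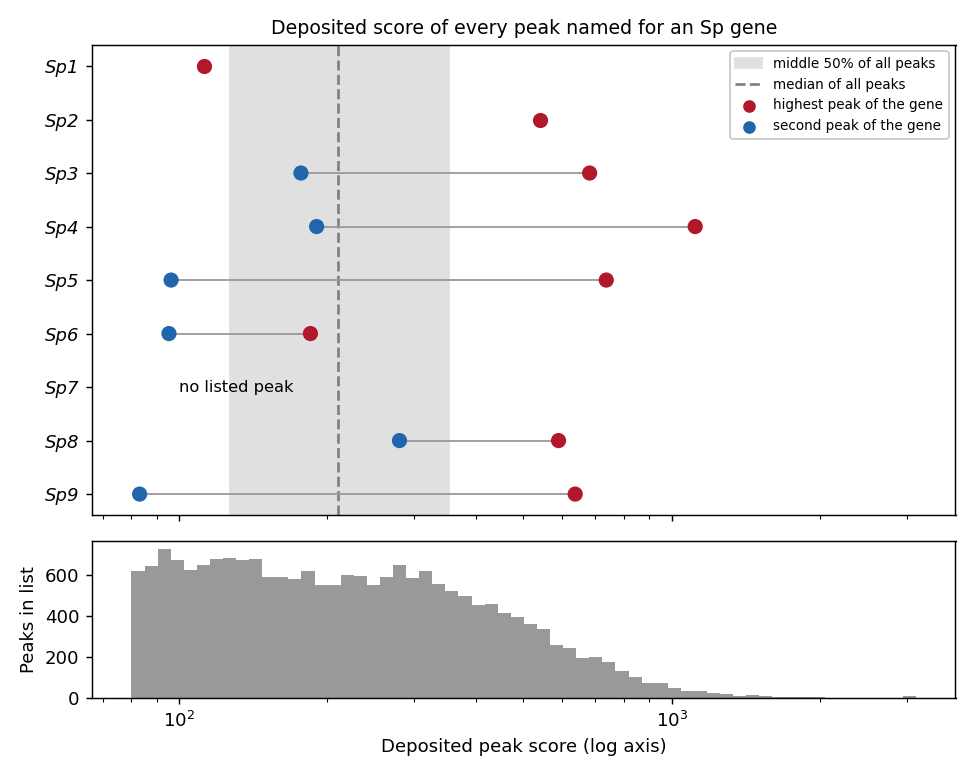
Score of each of the 14 peaks named for an Sp gene (upper panel, log axis) above the distribution of all 19979 peaks of the list (lower panel). The highest peaks of Sp2, Sp3, Sp4, Sp5, Sp8 and Sp9 lie right of the middle 50% of all peaks, those of Sp1 and Sp6 do not, and Sp7 has none.

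The 8 highest peaks fell into an upper group of 6 genes and a lower group of 2. Sp4 came first with 1116.63, which was 1.52-fold the score of the next gene. Sp5 (736.70), Sp3 (681.65), Sp9 (637.13), Sp8 (589.41) and Sp2 (541.62) followed, with steps of 1.07- to 1.09-fold between neighbours. The order within those 5 genes is not resolved, since the error of a score is unknown. Below Sp2 came a step of 2.93-fold to Sp6 (184.76), and Sp1 was last with 112.08. The median of the 8 highest scores was 613.27, against 273.25 for the highest score of each coding gene with a peak.

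Promoter sequences of the family are shown because Sp proteins bind GC boxes and because members differ in how many they hold. They come from RefSeq (build GRCm38.p6) and run from 250 bases before to 50 after an annotated start, written 5′ to 3′ on the strand of the gene; capitals mark the letters GGGCGG or, on the other strand, CCGCCC. The peaks are in build mm9, so whether a peak covers any of these windows was not analysed here. The Sp4 window is chr12:118301391-118301690 (minus strand), that of Sp5 chr2:70474673-70474972 (plus), that of Sp9 chr2:73271676-73271975 (plus), that of Sp8 chr12:118846983-118847282 (plus, the second of 3 entries) and that of Sp1 chr15:102406066-102406365 (plus).
Sp4: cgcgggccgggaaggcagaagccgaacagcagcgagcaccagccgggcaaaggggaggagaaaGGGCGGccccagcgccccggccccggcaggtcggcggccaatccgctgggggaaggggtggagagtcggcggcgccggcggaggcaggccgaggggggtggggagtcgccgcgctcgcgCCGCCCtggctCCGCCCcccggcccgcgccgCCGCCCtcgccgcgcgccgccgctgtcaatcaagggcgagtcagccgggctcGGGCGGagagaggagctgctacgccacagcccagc
Sp5: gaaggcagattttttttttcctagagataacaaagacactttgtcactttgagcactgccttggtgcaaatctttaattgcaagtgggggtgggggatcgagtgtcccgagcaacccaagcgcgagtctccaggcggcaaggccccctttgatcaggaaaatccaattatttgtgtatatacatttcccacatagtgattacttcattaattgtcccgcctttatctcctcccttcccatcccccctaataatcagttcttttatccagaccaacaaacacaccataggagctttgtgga
Sp9: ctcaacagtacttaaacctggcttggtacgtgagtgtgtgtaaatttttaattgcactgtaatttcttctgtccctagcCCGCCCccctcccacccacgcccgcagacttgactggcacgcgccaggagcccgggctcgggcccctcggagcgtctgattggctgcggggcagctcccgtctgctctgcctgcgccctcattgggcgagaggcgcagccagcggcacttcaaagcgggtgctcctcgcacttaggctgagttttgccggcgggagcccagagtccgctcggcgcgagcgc
Sp8: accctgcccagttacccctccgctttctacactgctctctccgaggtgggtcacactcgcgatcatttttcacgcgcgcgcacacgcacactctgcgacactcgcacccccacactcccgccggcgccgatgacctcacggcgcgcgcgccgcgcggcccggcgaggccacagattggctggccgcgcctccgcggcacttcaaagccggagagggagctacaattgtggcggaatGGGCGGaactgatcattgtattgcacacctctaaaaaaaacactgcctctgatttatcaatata
Sp1: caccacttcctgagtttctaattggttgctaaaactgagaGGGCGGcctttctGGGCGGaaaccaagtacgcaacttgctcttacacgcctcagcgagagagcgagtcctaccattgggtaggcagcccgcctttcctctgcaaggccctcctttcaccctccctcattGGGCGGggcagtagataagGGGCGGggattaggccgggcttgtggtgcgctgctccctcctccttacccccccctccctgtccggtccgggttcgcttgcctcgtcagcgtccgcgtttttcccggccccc

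The number of GC boxes did not follow the order of the scores. Sp4, with the highest score, had 5 matches, a number reached or passed by 2.71% of the 32851 promoter windows of the table. Sp5, second in score, had 0 matches and 45.0% G and C bases, a value higher than that of 22.0% of windows. Sp1, with the lowest score, had 4 matches, and 5.49% of windows had 4 or more. Sp9 had 1 match, and 35.7% of all windows had at least 1. Of the 3 Sp8 windows, the second had 1 match and the other two had 0; the second is printed because it alone held a match. Of the 12 windows listed for the 7 genes Sp1, Sp2, Sp3, Sp4, Sp5, Sp8 and Sp9, 7 held a match, against 35.7% of all windows. Sp2, Sp3 and Sp8 gave more than 1 window each, and Sp6 and Sp7 had none. The first of the Sp3 entries held 2 matches and the second (chr2:72979232-72979531, minus strand) held 5. Of the 3 Sp2 entries, the second held 2 and the others 0. The letters CACCC or GGGTG, the CACCC box, occurred 2 times in the Sp4 and Sp9 windows and 1 time in those of Sp1, Sp5 and the second Sp8 entry, and 57.5% of all windows had at least 1. A match is a run of letters and does not show binding.

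The highest peaks of Sp1 to Sp4 spanned the range of the highest scores in the family, from 112.08 to 1116.63. Sp4, a factor enriched in neurons, had its highest peak at chr12:119539646-119541171 (mm9), 1525 bp wide and 156th of the 19979 peaks. Its other peak, with a score of 190.18, lay 84.9 kb away at chr12:119626077-119626918, upstream of the stronger peak in the sense of the gene's strand in the RefSeq table. Sides given for the weaker peaks of other members are likewise relative to the stronger peak, not to the gene's start. The gap between the Sp4 peaks exceeded that of 81.0% of the 2155 coding genes with exactly 2 peaks on 1 chromosome, whose median gap was 20.5 kb.

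Sp3, which can activate or repress from the same sites as Sp1, had its peaks side by side. The stronger, with a score of 681.65, lay at chr2:72817767-72819416, and the weaker, with 176.73, at chr2:72816578-72817703, only 64 bp away. That gap was among the smallest of genes with 2 peaks, of which 2.04% had a smaller one, so the pair may be read as 1 bound stretch or as 2. No peak with another name lay within 100 kb of either.

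Sp2, needed for the cycling of neural progenitors, had a single peak of score 541.62 at chr11:96838303-96839495, above 90.3% of all peaks although its width of 1192 bp exceeded only 70.1% of them. Sp1, the broadly expressed founder of the family, had a single peak of score 112.08 at chr15:102235451-102236142. It was 691 bp wide, the narrowest of the 14 peaks, and its score exceeded 18.2% of all peaks. Both its score and its width were in the lowest 25% of the list.

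The second of the 3 Sp2 promoter entries (chr11:96977639-96977938, minus strand, GRCm38.p6) is shown because it held 6 CCAAT boxes, the element bound by the trimeric factor NF-Y. Capitals mark CCAAT or, on the other strand, ATTGG; 6 or more matches occurred in 0.0791% of windows and at least 1 in 37.4%. It was picked out after the counts of all 12 windows had been seen, and the other 11 held 0 to 3 matches.
Sp2: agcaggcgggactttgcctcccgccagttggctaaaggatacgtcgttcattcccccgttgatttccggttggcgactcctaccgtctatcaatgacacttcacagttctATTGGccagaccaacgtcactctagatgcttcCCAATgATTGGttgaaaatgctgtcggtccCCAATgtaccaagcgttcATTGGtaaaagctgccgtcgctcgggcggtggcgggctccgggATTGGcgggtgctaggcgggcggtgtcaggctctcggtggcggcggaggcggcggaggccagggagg

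Sp5, a direct target of Wnt signalling that dampens Wnt responses, had the second highest score of the family. Its stronger peak, 736.70, lay at chr2:70313947-70315552 and its weaker, 96.30, at chr2:70309747-70310457, 3.49 kb upstream. The stronger exceeded 96.2% of the list and the weaker 10.1%. The ratio of 7.65 between them exceeded that of 97.4% of genes with 2 peaks, whose median ratio was 1.94.

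Among Sp6 to Sp9, Sp8 and Sp9 each had a peak of high score, whereas Sp6 had only lower ones and Sp7 had no listed peak. Sp9 had its stronger peak, with a score of 637.13, at chr2:73110826-73113066. At 2240 bp it was the widest of the 14 and wider than 97.8% of the list. Its weaker peak lay 2.01 kb downstream at chr2:73115080-73116178, with a score of 83.13, which exceeded only 1.62% of the list, whose lowest score was 80.01. The ratio of the pair was 7.66, close to the 7.65 of Sp5.

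Sp8 differed from Sp9 in its weaker peak. The stronger Sp8 peak, with a score of 589.41, lay at chr12:120086666-120088699 and was 2033 bp wide. The weaker, at chr12:120074801-120075661, 11.0 kb upstream, scored 280.17, more than 64.0% of the list. It was the only weaker peak of the 6 genes with 2 peaks that exceeded the median of the list; the other 5 scored 83.13 to 190.18. The ratio within the Sp8 pair was 2.10, near the median of 1.94 for genes with 2 peaks.

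Sp6, or epiprofin, which acts in teeth, hair follicles and limb buds, had a peak of score 184.76 at chr11:96858404-96859406 and another of 95.35 at chr11:96879725-96880553, 20.3 kb apart. Both lay below the median of the list. Sp7, or osterix, the factor that commits cells to bone formation, had no listed peak. In the gene order of the RefSeq table Sp7 stands between Aaas, a nuclear pore gene, and Sp1. The peaks named for Aaas and Sp1 that face each other across that place were 46.1 kb apart, from 102189305 to 102235451 on chromosome 15, and 0 peaks lay between them. The depth of the libraries is unknown, so a gene without a listed peak is not shown to be unbound.

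The highest peaks of Sp2 (1192 bp), Sp4 (1525 bp), Sp5 (1605 bp) and Sp3 (1649 bp) were narrower than those of Sp8 (2033 bp) and Sp9 (2240 bp), although all 6 exceeded the median width of 986 bp. Divided by width, the score was 732 per kb for the highest peak of Sp4, 459 for Sp5, 454 for Sp2 and 413 for Sp3, all above at least 91.5% of the list, whose median was 214 per kb. Sp8 had 290 and Sp9 284 per kb, above 71.6% and 70.4% of the list. On this scale 4 of the 9 genes were in the upper 25% of peaks instead of 6, and the genes that left it were Sp8 and Sp9. The share of all coding genes on this scale was not computed. Division by width lowers wide peaks most, and the highest peaks of Sp8 and Sp9 were the widest of the 14. Sp6 (184 per kb) and Sp1 (162 per kb) stayed below the median.

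**Figure D2:**
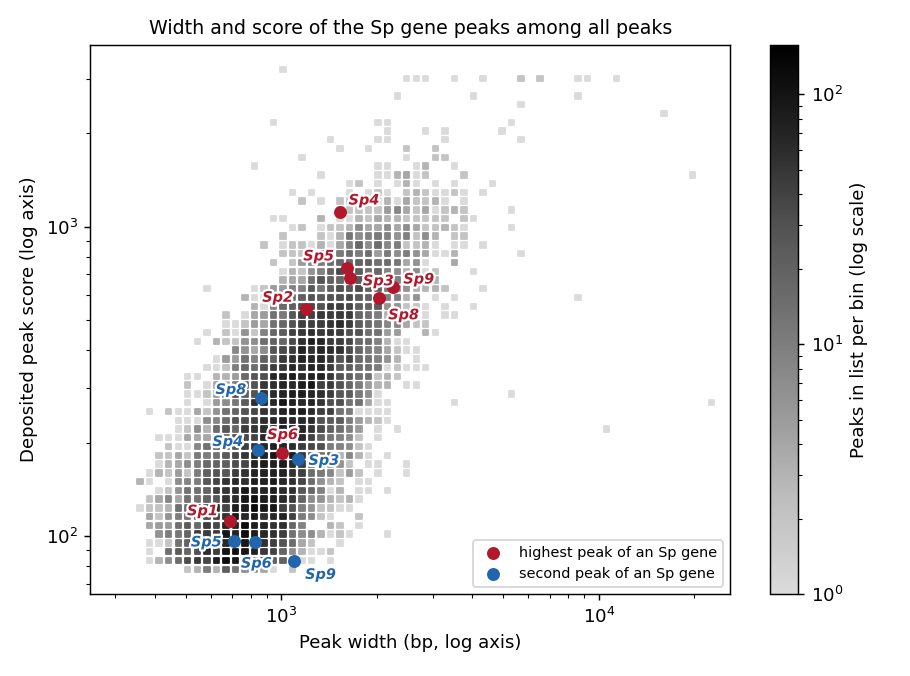
Width of each peak in bp against its score, both on log axes; grey squares give the number of peaks of the whole list in each bin, red points the highest peak of each Sp gene and blue points the second peak. Sp4 lies near the upper edge of the cloud for its width of 1525 bp, whereas Sp8 and Sp9 lie at 2033 and 2240 bp with scores of 589.41 and 637.13.

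The family occupied 4 chromosomes, and on each an Sp1 to Sp4 gene stood near a gene of the Sp6 to Sp9 branch. In the RefSeq gene order Sp2 and Sp6, Sp4 and Sp8, and Sp7 and Sp1 are direct neighbours among coding genes, and Sp3 and Sp9 are separated by Ola1 alone. The nearest peaks of Sp6 and Sp2 were 18.9 kb apart with 0 peaks between them. Those of Sp9 and Sp3 were 291 kb apart, and the 1 peak between them was named Ola1. Those of Sp8 and Sp4 were 448 kb apart, with 1 peak between them, named D230030E09Rik. Sp5 lay farther off, 2500 kb from Sp3, with 20 peaks between them.

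Sp2 and Sp4 had higher deposited scores than Sp6 and Sp8, the genes paired with them. The highest peak of Sp2 was 2.93-fold that of Sp6 and the highest peak of Sp4 was 1.89-fold that of Sp8. Sp3 was 1.07-fold Sp9, a difference too small to order without an error, and Sp1 had a peak of 112.08 where Sp7 had none. Divided by width, the scores were 454 against 184 per kb for Sp2 and Sp6, and 732 against 290 for Sp4 and Sp8. They were 413 against 284 for Sp3 and Sp9, where the division lowers the wider Sp9 peak more.

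The 14 Sp peaks had 1 to 4 other peaks each within 100 kb, those of the same gene included, with a median of 3. Over all peaks on assembled chromosomes the median was 2 and the upper quartile 5. All 6 peaks of Sp3, Sp4 and Sp8 lacked any peak of another name within 100 kb, counted from edge to edge. This was 42.9% of the 14 peaks, against 35.2% of the 19880 peaks on assembled chromosomes, a share near the background. The Sp8 peaks were nearest to D230030E09Rik, at 152 kb, and to the transporter gene Abcb5, at 161 kb. The Sp4 peaks had no peak of another name for 457 kb on the side of Cdca7l and 295 kb on that of D230030E09Rik.

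The other members had 9 neighbouring peaks outside the family within 100 kb, named for 7 genes. Near Sp5 were a peak of Gad1, the gene of a GABA-synthesising enzyme, with a score of 245.36 at 84.3 kb, and a peak of Erich2 with 96.53 at 31.5 kb. Near Sp9 were peaks of Ola1, an ATPase gene, with 347.15 at 57.8 kb, and of the secernin gene Scrn3 with 187.43 at 34.4 kb. Another secernin gene, Scrn2, had a peak of 372.74 only 2.18 kb from the weaker Sp6 peak of 95.35. It exceeded that Sp6 peak and also the stronger Sp6 peak of 184.76. Tbx21, the gene of a T cell regulator, had a peak of 383.03 at 95.1 kb from Sp6. Around Sp1 stood 3 peaks of Aaas with scores of 92.25, 123.79 and 284.95 at 46.1 to 54.0 kb, of which 2 exceeded that of Sp1. The deposited name alone ties a peak to its gene, and the labels do not state the rule behind the names.

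**Figure D3:**
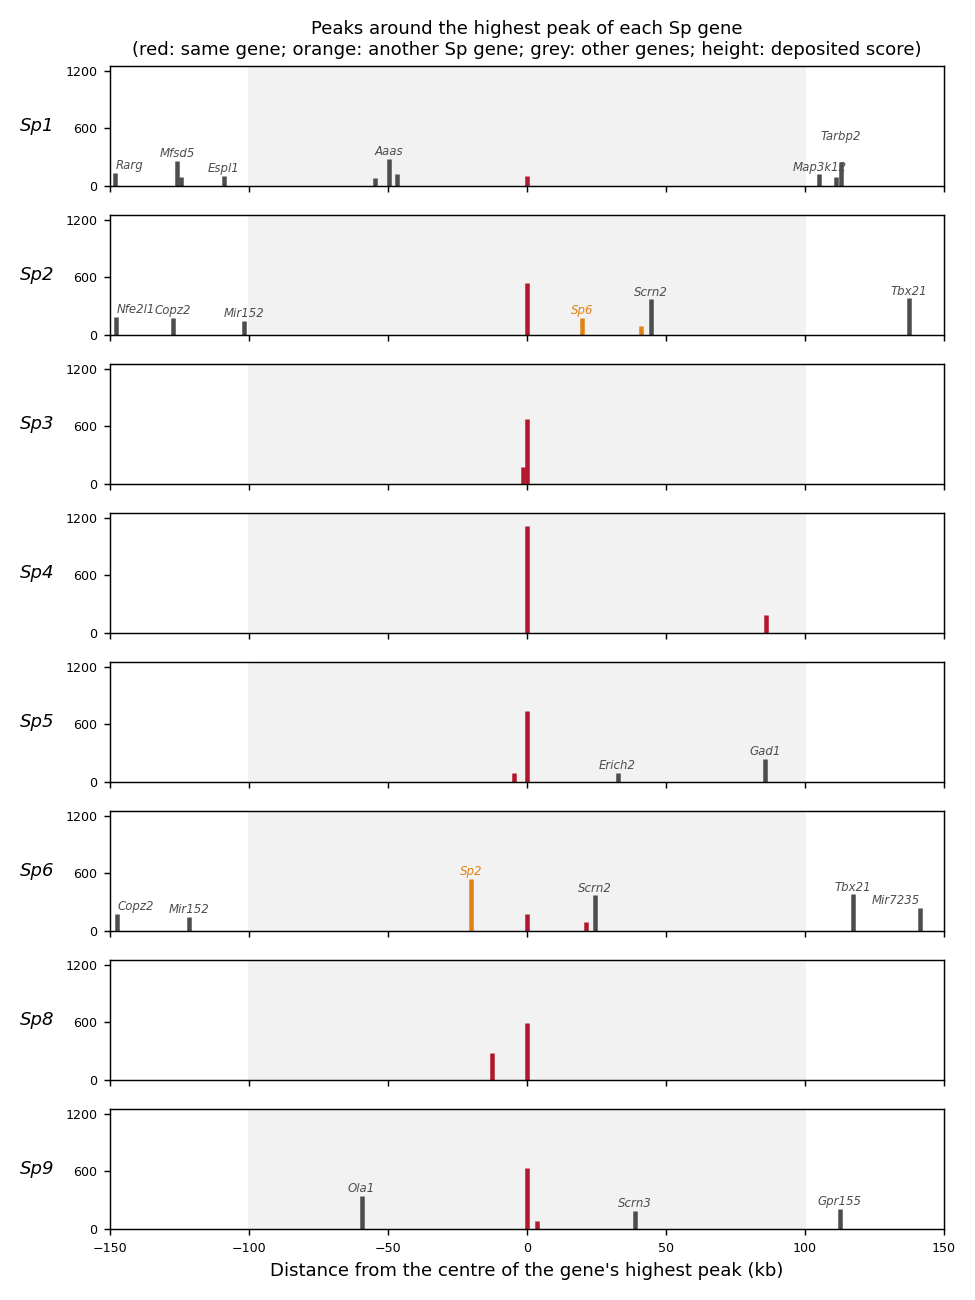
Peaks within 150 kb of the highest peak of each Sp gene, drawn as bars at their distance in kb from its centre, with the deposited score as height; the shaded band marks 100 kb on each side. Sp3, Sp4 and Sp8 have only their own peaks (red), Sp2 and Sp6 share a neighbourhood (orange bars are the other Sp gene), and Aaas peaks stand beside Sp1.

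Genes of other zinc finger factors that bind GC-rich sites were linked about as often as the Sp genes. In a list of 23 Klf, Egr and Wt1 genes, 20 (87.0%) had a peak, against 55.4% of coding genes. A peak in the upper 25% was linked to 17 of the 23, against 19.2% of all coding genes. Among genes with any peak, it was linked to 17 of the 20 and to 34.6% of coding genes. The median of their highest scores was 502.22, against 613.27 for the Sp genes, and they had 1.52 peaks per gene. The highest scores were those of Egr4, an activity-response gene (1698.23), Klf13 (1401.20), Egr3 (859.60) and Klf11 (744.64). Egr4 and Klf13 exceeded Sp4, and the lowest gene, Klf6 with 103.47, lay below Sp1. Klf8, Klf17 and Klf18 had no linked peak, and Klf18 was not in the gene table. The name Klf14 is also an older synonym of Sp6, but the peak with that name lay on chromosome 6, where the table places Klf14, and not on chromosome 11 with Sp6.

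Genes of proteins that work with or modify Sp factors were linked nearly as often and had lower scores. Of 22 such genes, 18 (81.8%) had a peak, against 55.4% of coding genes. A peak in the upper 25% was linked to 10 of the 22, against 19.2% of all coding genes. Among genes with any peak, it was linked to 10 of the 18 and to 34.6% of coding genes. The median of their highest scores was 411.39. They had 0.909 peaks per gene, near the 0.819 per coding gene. The leading gene was Nfya, a subunit of the CCAAT-binding factor NF-Y, with 984.28. Its partner subunits Nfyc and Nfyb had 572.03 and 209.45. Sin3a, a scaffold of histone deacetylase complexes, had 765.27, the SUMO ligase gene Pias1 750.24 and the Mediator gene Med26 708.65. The lowest was Med1 with 121.37. Taf1, Med23, Med24 and Ogt, the gene of the enzyme that adds N-acetylglucosamine to Sp1, had no linked peak.

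**Figure D4:**
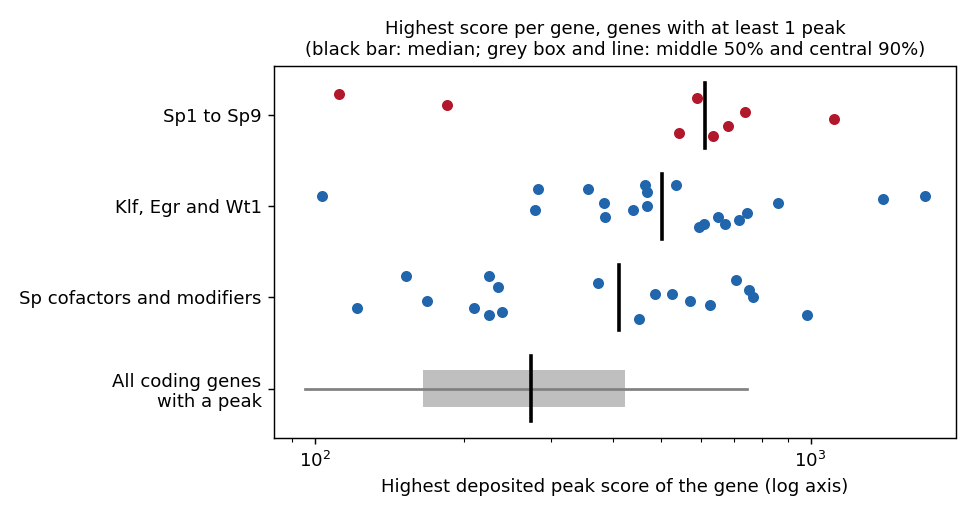
Highest score of each gene with at least 1 peak, on a log axis, for 8 Sp genes (red), 20 Klf, Egr and Wt1 genes, 18 cofactor and modifier genes (blue) and all coding genes with a peak (grey box, middle 50%; line, central 90%); black bars are medians. The medians are 613.27, 502.22, 411.39 and 273.25, and Sp1 and Sp6 stand apart from the other 6 Sp genes.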

How the data were processed

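The 3 samples of the labels were 2 Sp9 immunoprecipitations and 1 input from olfactory bulb, read as paired ends of 150 bases. The deposited file holds 1 peak score per peak with a chromosome, a start, an end and a gene name. The submitters' processing notes name Bowtie2 2.2.4, MACS 1.4.2 and build mm9, without role or settings. Not given in the sources used here are how the authors defined shared peaks, computed the score and assigned names, and whether starts count from 0 or 1. Depth is unknown, so no interval is given. The score was used to rank peaks within the list, to form ratios between peaks and to give scores per kb. As its formula is unknown, a ratio of scores cannot be read as a ratio of binding. Widths and gaps are differences of deposited positions. Coding genes and gene order came from RefSeq (GRCm38.p6), with names matched by symbol or by an unshared synonym; its coordinates were not compared with the peaks. Members and lists were chosen with earlier results of these data known. Named were all members, all genes with a peak within 100 kb, and per list the 4 highest, the lowest and those without a peak; Nfyb, Nfyc and the flanking genes of the closing section were added after their values were seen. Neighbour and motif counts were tested on simulated data. Python 3.11.15 and pandas 2.3.3 were used. Alternatives were stricter scores, widths, windows, name matching and reference sets.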

Additional observations from a re-analysis of the deposited data

How the results depend on the processing

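The number of linked Sp genes was 8 as deposited, with names matched through synonyms, with peaks of at least 500 bp only, and with peaks within 10 kb counted too, and it was 6 with peaks at or above the median or in the upper 25% only. Their 14 peaks became 7 at or above the median and 6 in the upper 25%, 13 with peaks within 1 kb merged, and 15 with those within 10 kb counted. Of the cofactor genes, 10 instead of 18 had a peak in the upper 25%. The 9 neighbouring peaks outside the family became 5 within 50 kb, 33 within 200 kb and 3 at or above the median, fewer or more by the construction of each setting. The number of Sp genes in the upper 25% by score was 6 also among the highest peaks of each name and within each chromosome. It was 4 when scores were divided by width, a scale on which the share of all coding genes was not computed. Leaving out a library was not run, because the list holds no value per library. No paired analysis was possible because the result comes from no test and the list holds no column per library. Because depth is unknown, a gene off the list may still be bound below the limit of detection.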

Other observations

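The stretches around Sp3 with Sp9 and around Sp4 with Sp8 hold further related genes, which were chosen after the gene order had been seen. Those named next had 1 peak each, and 55.4% of all coding genes had at least 1. These genes were picked after their values were seen, so their count is not a share to compare with that. Rapgef4 on chromosome 2 had 1 peak of score 127.45 (chr2:71818859-71819751, mm9), and its relative Rapgef5 on chromosome 12 had 1 of 345.13 (chr12:118771968-118773196); both encode exchange factors for Rap proteins. Cdca7, a cell cycle gene next to Sp3, had 1 peak of 296.49 (chr2:72313768-72314993), and its relative Cdca7l, near Sp4, had 1 of 462.46 (chr12:119081806-119083084). In both pairs the gene on chromosome 12 had the higher score, as Sp4 (1116.63) did beside Sp3 (681.65). Sp8 on chromosome 12 (589.41) did not exceed Sp9 on chromosome 2 (637.13). Dnah11 and Cir1, which stand next to Sp4 and Sp9 in the gene order, had 0 listed peaks.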
